A study of Mus musculus with 7 samples.

Results

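The genes described here mark the step at which a dividing oligodendrocyte progenitor has committed to differentiate but has not yet wrapped axons, the premyelinating stage. A list of 10 such genes was chosen by name. Like the other gene lists below, it was drawn up with earlier results of these data known. It holds Bcas1, Enpp6, Itpr2, Rras2, Tmem2 (also called Cemip2), Fyn, Tmem163, 9630013A20Rik, Sirt2 and Mpzl1. Of these, 9 matched a row among the 49315 genes of the count tables, and all 9 passed the filter on low counts that left 16616 genes for testing. No row carried the name or gene ID of 9630013A20Rik, a long non-coding RNA of newly formed oligodendrocytes, and it is not analysed here.

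The study measured RNA of oligodendroglia from mouse brain in Control libraries 1 to 3, of genotype Sox9-wt, and in Sox9-tg libraries 1 to 4, which overexpress the transcription factor Sox9. NG2 glia soon after birth are named in the series' title. The sources used here do not give the promoter that drives the transgene, the exact age, how the cells were isolated or cultured, or any treatment. Titles call the libraries biological replicates without saying that they came from separate animals or cultures, so the p-values measure the spread between these libraries, part of which may be technical.

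NG2 glia divide, carry PDGF receptor alpha, and give rise to oligodendrocytes. On leaving the cell cycle they switch on a transient set of genes, among them those for the receptor Gpr17, the protein Bcas1 and the phosphodiesterase Enpp6, before the genes of compact myelin reach high levels. Premyelinating cells extend branched processes, and many of the genes listed act on the membrane, the cytoskeleton or intracellular calcium.

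Libraries held 15768472 to 30507326 gene counts, and levels are given in CPM, a count relative to its library's total after scaling for library composition. Sox9 ranged from 239 to 353 CPM in Control and from 2207 to 3597 CPM in Sox9-tg libraries, so each library matched its label. The lineage genes Olig2 (310 to 385 against 526 to 790 CPM) and Pdgfra (409 to 453 against 1303 to 1538 CPM) were present in all 7 libraries, as the labelled cell type requires.

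The 9 genes split into 7 that rose in Sox9-tg cells and 2 that did not pass the test. Enpp6 and Bcas1 rose most, Tmem163, Itpr2 and Sirt2 by an intermediate amount, and Mpzl1 and Fyn least. Rras2 stayed near its Control level and Tmem2 had a lower mean. A gene was called at an adjusted p under 0.05 (edgeR quasi-likelihood F test, p-values adjusted by Benjamini-Hochberg over all 16616 genes), and this called 7.69% of all genes as higher and 5.86% as lower. The same 7 members had groups whose ranges did not overlap, higher in Sox9-tg, as did 13.1% of all genes tested. Their log2 fold changes were all above 1, a size reached by 6.57% of all genes. The median log2 fold change of the 9 genes was 2.29, and that of all genes tested was -0.01. Since the list was chosen with earlier results known, these shares and medians are set side by side only as a description. In bulk RNA, more cells of a type and more RNA per cell cannot be told apart.

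**Figure D1:**
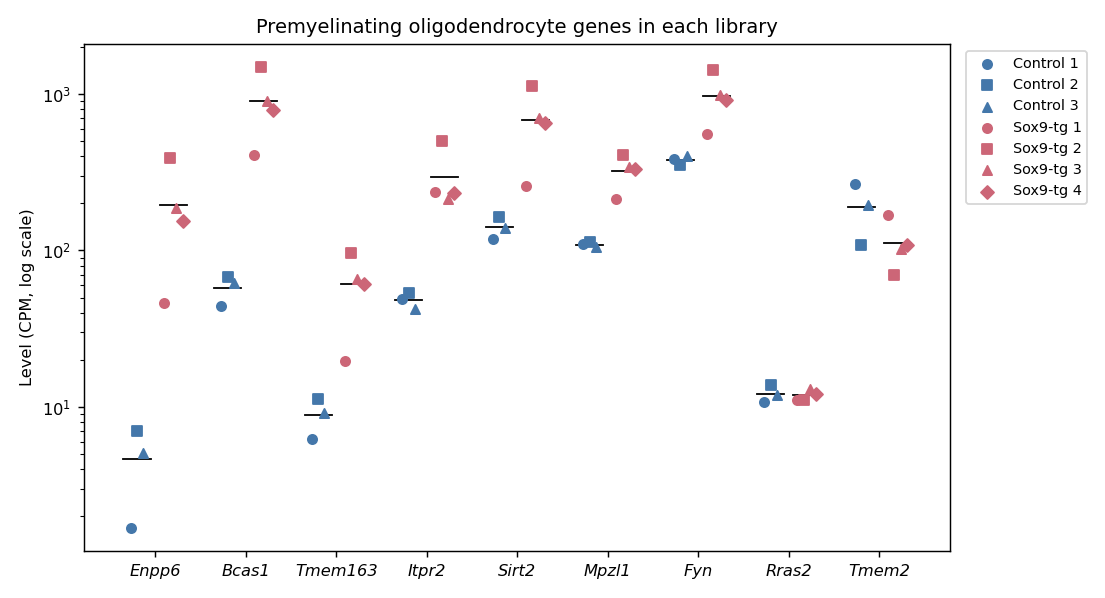
Level of each measured gene in each library, in CPM on a log axis, with marker shapes for library numbers and a line at the group mean. Enpp6, Bcas1, Tmem163, Itpr2, Sirt2, Mpzl1 and Fyn were higher in all 4 Sox9-tg than in all 3 Control libraries, and the ranges overlapped for Rras2 and Tmem2.

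The bases just before the start of 3 of these genes are printed to show how unlike their promoters are: the gene with the largest rise (Enpp6), an intermediate one (Itpr2) and one that did not move (Rras2). Each run is the 250 bases before the RefSeq start on GRCm38.p6, 5′ to 3′ on the gene's own strand, at chr8:46986637-46986886 (plus), chr6:146502224-146502473 (minus) and chr7:114117782-114118031 (minus). Capitals mark matches to ACAATG, one of the letter strings that SOX proteins can bind.
Enpp6: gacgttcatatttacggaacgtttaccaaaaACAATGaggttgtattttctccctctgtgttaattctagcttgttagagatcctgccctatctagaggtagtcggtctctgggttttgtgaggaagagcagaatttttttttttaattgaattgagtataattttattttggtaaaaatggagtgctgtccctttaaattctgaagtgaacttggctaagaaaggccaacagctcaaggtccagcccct
Itpr2: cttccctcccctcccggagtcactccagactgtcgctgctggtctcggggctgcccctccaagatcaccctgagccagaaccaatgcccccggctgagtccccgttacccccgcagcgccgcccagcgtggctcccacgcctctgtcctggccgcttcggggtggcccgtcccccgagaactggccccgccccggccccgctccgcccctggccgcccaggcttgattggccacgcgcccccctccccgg
Rras2: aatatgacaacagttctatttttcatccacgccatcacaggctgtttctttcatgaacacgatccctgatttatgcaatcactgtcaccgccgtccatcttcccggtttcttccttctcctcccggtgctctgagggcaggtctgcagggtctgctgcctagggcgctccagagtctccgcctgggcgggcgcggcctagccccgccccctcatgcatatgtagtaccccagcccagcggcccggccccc

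The Enpp6 sequence was AT-rich, with a GC content of 38.4%, at or above that of 9.7% of the 32851 windows of the same length in the RefSeq table. It held 1 match to ACAATG. The Itpr2 sequence had a GC content of 74.4% and 22 CpG dinucleotides, against 4 in Enpp6, and the Rras2 sequence had 59.6% and 14. Both strands were searched for the SOX-type strings ACAAAG and also ACAATG. The same was done for CTGGCAC as well as for CTGGTAC, forms of the motif of the myelin regulator Myrf. Itpr2 and Rras2 held none of these strings. Windows were found for 7 of the 9 measured genes. Among these 7 the only string matched was ACAATG, in Enpp6 and in Sirt2. Over all 32851 windows, 16.5% held ACAAAG, 10.7% ACAATG, 4.19% CTGGCAC and 1.83% CTGGTAC. A match or its absence in this window says nothing of whether Sox9 or Myrf binds the gene.

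Enpp6 (ENSMUSG00000038173, GRCm38 chromosome 8, 46986887 to 47096762, plus strand) encodes a choline-specific phosphodiesterase of newly forming oligodendrocytes. Its level was 1.69, 7.05 and 5.11 CPM in Control 1 to 3 and 46.0, 391, 187 and 155 CPM in Sox9-tg 1 to 4. Every Sox9-tg library lay above every Control library, and Sox9-tg 1 stood far below the other Sox9-tg libraries. The rise was 40.9-fold (log2 fold change 5.35, SE 0.79, 95% interval 3.56 to 7.14, adjusted p = 0.00323), larger than that of all but 0.0361% of genes tested. Control 1 rested on 29 counts and Sox9-tg 2 on 7837. The SD of log2 CPM was 1.05 over Control and 1.28 over Sox9-tg libraries, so Enpp6 varied widely in both groups.

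Bcas1 (ENSMUSG00000013523, chromosome 2, 170346991 to 170427845, minus strand) encodes a protein found in early myelinating oligodendrocytes. It stood at 44.2, 67.3 and 62.3 CPM in Control 1 to 3 and at 406, 1487, 902 and 787 CPM in Sox9-tg 1 to 4. The lowest Sox9-tg library was well above the highest Control library. Bcas1 rose 15.4-fold (log2 fold change 3.95, SE 0.44, adjusted p = 0.000947). Exons of the antisense genes Bcas1os1 and Bcas1os2 overlap those of Bcas1 over 440 and 34 bases. Their counts were 2 to 20 and 12 to 30 in Control and 75 to 203 and 47 to 257 in Sox9-tg libraries, against 760 to 2071 and 7732 to 29819 for Bcas1. The use of strand in counting is not given in the sources used here, so shared reads of these genes cannot be told apart.

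Tmem163 (ENSMUSG00000026347, chromosome 1, 127486546 to 127679548, minus strand) encodes a membrane protein that carries zinc out of the cytosol. Its levels were 6.28, 11.3 and 9.19 CPM in Control 1 to 3 and 19.8, 96.6, 65.4 and 60.9 CPM in Sox9-tg 1 to 4. The groups did not overlap, and Sox9-tg 1 was the nearest to Control. Tmem163 rose 6.74-fold (log2 fold change 2.75, SE 0.48, adjusted p = 0.00697). Exons of Tmem163 share 152 bases, 3.54% of its exonic length, with the opposite-strand gene Mgat5. Mgat5 had 2424 to 3564 counts in Control and 1408 to 2227 in Sox9-tg libraries, against 108 to 348 and 377 to 1937 for Tmem163, and without known strand use their shared reads cannot be told apart. Of the 17 tested genes for zinc carriers and metallothioneins, Tmem163 included, 3 rose and 1 fell. Beside this and the family counts below, 7.69% of all genes tested were called higher and 5.86% lower. Each family list also holds its member, and no family was tested as a set. Slc30a4 and Slc30a5, which move zinc into vesicles, rose by 0.36 and 0.41 on the log2 scale, and Slc30a10 fell by 1.43. The calls of Slc30a4 and Slc30a5 were each lost without any of 6 libraries (all but Sox9-tg 1), with adjusted p from 0.0646 to 0.154. With all libraries, both were also lost under total counts (adjusted p = 0.0771 and 0.0516) and with no filter on low counts (0.112 and 0.0643), and Slc30a4 under upper-quartile factors (0.0719) and in limma-voom (0.052).

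Itpr2 (ENSMUSG00000030287, chromosome 6, 146108299 to 146502223, minus strand) encodes a type of inositol trisphosphate receptor, a channel that releases calcium from the endoplasmic reticulum. Control 1 to 3 held 49.1, 53.6 and 42.1 CPM and Sox9-tg 1 to 4 held 235, 502, 212 and 232 CPM. Sox9-tg 2 stood alone at the top, while the other Sox9-tg libraries lay close together, with Sox9-tg 1 among them. Itpr2 rose 6.12-fold (log2 fold change 2.61, SE 0.33, adjusted p = 0.00152). Neither Itpr1 (log2 fold change 0.03, adjusted p = 0.962) nor Itpr3 (0.72, adjusted p = 0.365) passed, and the sign of Itpr1 was negative under upper-quartile factors and under total counts. Of 13 genes of calcium release and store refilling, all tested, 4 rose (Itpr2, Stim1, Stim2 and Orai1) and 1 fell, the ryanodine receptor gene Ryr1 (log2 fold change -1.33). Stim1, a calcium sensor of the endoplasmic reticulum, rose by 1.19, Stim2 by 0.53 and the channel gene Orai1 by 0.82 on the log2 scale. Stim2 lost its call without any Control library or Sox9-tg 3 or 4 (adjusted p 0.0552 to 0.0961), and Orai1 without Control 1 or 3 or Sox9-tg 3 or 4 (0.0873 to 0.146) or under total counts (0.0526).

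Sirt2 (ENSMUSG00000015149, chromosome 7, 28766735 to 28788661, plus strand) encodes a deacetylase that acts on tubulin and is abundant in oligodendrocytes. It measured 119, 163 and 139 CPM in Control 1 to 3 and 257, 1127, 699 and 655 CPM in Sox9-tg 1 to 4. All Sox9-tg libraries were higher than all Control libraries, with Sox9-tg 1 the nearest to them. Sirt2 rose 4.88-fold (log2 fold change 2.29, SE 0.43, adjusted p = 0.00954), and its call was lost without Control 3 (adjusted p = 0.0501). Its exons share 42 bases with the opposite-strand gene Nfkbib, which had 419 to 773 counts in Control and 424 to 1041 with the transgene, so the same limit applies. None of the other 6 sirtuin genes, all tested, passed. In the list of sirtuins and genes of tubulin acetylation, 2 of 10 rose, Sirt2 and Tppp, which encodes a tubulin-binding protein of oligodendrocytes (log2 fold change 1.03). Tppp lost its call without Control 1 or 3 or Sox9-tg 2, 3 or 4 (adjusted p 0.0556 to 0.111).

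Mpzl1 (ENSMUSG00000026566, chromosome 1, 165592240 to 165634538, minus strand) encodes a membrane glycoprotein that binds the phosphatase encoded by Ptpn11. It was the most even of the genes that rose, at 109, 113 and 105 CPM in Control 1 to 3 and 212, 340.3 and 332 CPM in Sox9-tg 1, 3 and 4, with 405 CPM in Sox9-tg 2. The groups were far apart for their spread. Mpzl1 rose 2.95-fold (log2 fold change 1.56, SE 0.21, adjusted p = 0.00204). Of 5 tested genes of its family and partners, Mpzl1 and the adaptor gene Gab1 rose, Gab1 by 1.39 on the log2 scale.

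Fyn (ENSMUSG00000019843, chromosome 10, 39368855 to 39565381, plus strand) encodes a Src family kinase needed for normal myelination, which passes on signals from axonal contact. It was already abundant in Control 1 to 3, at 385, 350.2 and 404 CPM, and reached 552, 1415, 982 and 922 CPM in Sox9-tg 1 to 4. Groups did not overlap, with the smallest gap in Sox9-tg 1. The log2 fold change was 1.35 (SE 0.28, adjusted p = 0.0152), and the call was lost without Control 1 (adjusted p = 0.0512) or Control 3 (0.0624). Of 19 tested Src family genes and Fyn partners, 3 rose and 1 fell. Besides Fyn, Arhgap35, a GTPase-activating protein that Fyn phosphorylates, and Cntn1, an adhesion molecule that couples to Fyn, rose by 0.93 and 2.26 on the log2 scale. L1cam, a neuronal adhesion molecule, fell by 0.75, a call lost without Control 1 or 3 (adjusted p 0.0517 to 0.0557). Src itself did not pass (log2 fold change 0.38, adjusted p = 0.169), though it did without Sox9-tg 2 (0.0314).

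Rras2 (ENSMUSG00000055723, chromosome 7, 114046782 to 114117781, minus strand) encodes a small GTPase close to Ras. Its level was 10.7, 13.9 and 11.9 CPM in Control 1 to 3 and 11.1, 11.1, 13.1 and 12.2 CPM in Sox9-tg 1 to 4. The groups lay on top of each other. The log2 fold change was -0.04 (SE 0.15, adjusted p = 0.907), and its 95% interval of -0.39 to 0.31 does not reach the log2 fold change of any of the 7 genes that rose. The sign became positive without Control 2 or Sox9-tg 2. Of 14 Ras-type GTPase genes, all tested, 1 passed: Rap2a, also on the list of other premyelinating genes, rose by 1.28 on the log2 scale.

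Tmem2 (ENSMUSG00000024754, chromosome 19, 21778342 to 21858360, plus strand) encodes a cell surface enzyme that cleaves hyaluronan. Its levels were 265, 108 and 195 CPM in Control 1 to 3 and 169, 69.6, 102 and 108 CPM in Sox9-tg 1 to 4. Ranges overlapped, since Control 2 was as low as Sox9-tg 4. The log2 fold change was -0.76 (SE 0.34, 95% interval -1.53 to 0.01, adjusted p = 0.194). Among 9 tested genes of hyaluronan turnover, Has2, which makes hyaluronan, rose by 1.93 on the log2 scale. Hmmr, a hyaluronan receptor gene that also belongs to mitosis, fell by 1.14, a call lost without Control 1 or Sox9-tg 3 or 4 (adjusted p 0.0511 to 0.0721).

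**Figure D2:**
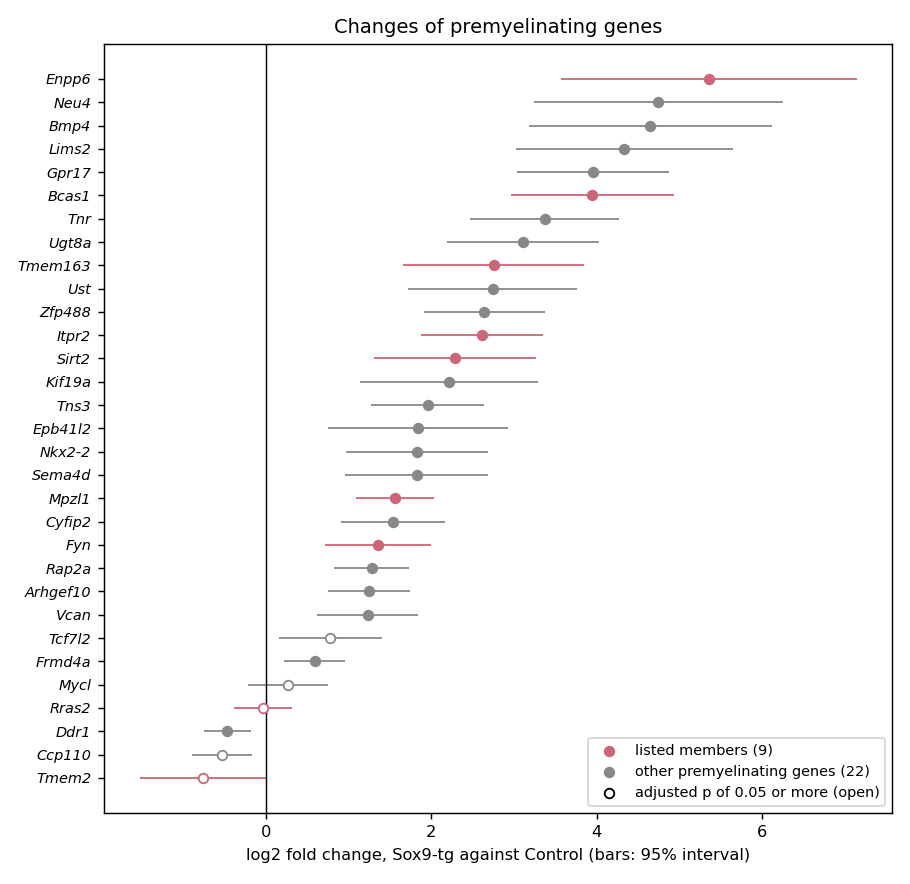
Log2 fold change of the 9 measured members and of 22 other tested premyelinating genes, with 95% intervals. Open circles did not pass. The members run from 5.35 for Enpp6 to -0.76 for Tmem2.

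The other premyelinating genes moved mostly the same way. Of 24 listed, 22 were tested, 18 rose, 1 fell and 3 did not pass, with a median log2 fold change of 1.83. Gpr17, the receptor that marks this stage, rose from 186 ± 62.4 CPM (SD, n = 3) to 2889 ± 1054 CPM (SD, n = 4), a log2 fold change of 3.96. Neu4, a sialidase, rose by 4.75 on the log2 scale, the growth factor gene Bmp4 by 4.65 and Zfp488, a differentiation factor, by 2.64. Tcf7l2, a transcription factor of newly formed oligodendrocytes, was at 39.1 ± 13.4 and 67.1 ± 19.6 CPM and did not pass (adjusted p = 0.103), but passed with all libraries in DESeq2 (adjusted p = 0.0339), and in edgeR without Control 2 (0.0293) or Sox9-tg 1 (0.0487). Ddr1, a collagen receptor, was the gene that fell, by 0.47, and lost its call without any library but Sox9-tg 1 (adjusted p 0.0854 to 0.151) and with no filter on low counts (0.105).

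Genes of the stage before were higher, and those of the stage after in part. Of 19 NG2 glia genes, all tested, 18 rose, with a median of 1.68, Pdgfra by 1.72 and Cspg4, which encodes NG2, by 2.38 on the log2 scale. Neu4 is on both this list and that of the other premyelinating genes, and is counted in each. Of 20 tested mature myelin genes, 12 rose, none fell and 8 did not pass, with a median of 1.99. Myrf rose by 4.49 on the log2 scale, Mag by 5.04, Mbp by 4.27 and Cnp by 2.78. Among those that did not pass, Mal had a log2 fold change of 1.52 and Nkx6-2 of 0.12. The others had negative values, Trf -0.66, Mog -0.42, Ermn -0.39, Aspa -0.25, Efnb3 -0.19 and Apod -0.07. Mog, a late myelin protein, had 4.77 ± 1.15 CPM in Control against 3.56 ± 0.586 with the transgene, and Opalin, another late marker, had 0 to 5 counts in any library and was not tested. By count, 6 of the 26 listed mature myelin genes did not reach the test.

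Ratios within a library put the members beside each other and beside Olig2, a factor of the whole lineage that itself rose by 0.98 on the log2 scale (its call lost without Control 3, adjusted p = 0.0605). They follow from the fold changes above and are given as a description, with no test. Relative to Bcas1, Tmem2 was 0.0423 times its Control ratio, Rras2 0.0689 times, Fyn 0.17 times (log2 difference -2.55) and Mpzl1 0.203 times. Sirt2 was 0.306 times, Itpr2 0.405 times and Tmem163 0.427 times its Control ratio. Enpp6 was at 2.71 times its Control ratio to Bcas1, the one ratio above its Control level.

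Relative to Olig2, Enpp6 was 19.7 times its Control ratio, Bcas1 7.26 times, Tmem163 3.1 times and Itpr2 2.94 times. Sirt2 was 2.22 times, Mpzl1 1.47 times, Rras2 0.501 times and Tmem2 0.308 times its Control ratio. The ratio of Fyn to Olig2 was 1.24 times that in Control, and the ratios of Fyn and Tmem2 overlapped between groups.

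Levels of different genes can be compared only per length, in FPKM, here CPM per kilobase of merged exons. In Control libraries the order was Fyn (87.0 ± 6.24), Mpzl1 (30.7 ± 1.05), Sirt2 (27.9 ± 4.38), Tmem2 (22.2 ± 9.25), Bcas1 (15.3 ± 3.22), Rras2 (3.42 ± 0.452), Itpr2 (3.26 ± 0.391), Tmem163 (2.08 ± 0.589) and Enpp6 (0.720 ± 0.424 FPKM, SD, n = 3). Neighbours in that order whose means differed by no more than the sum of their SDs were Mpzl1 and Sirt2, Sirt2 and Tmem2, Tmem2 and Bcas1, and Rras2 and Itpr2. In Sox9-tg libraries Bcas1 (237 ± 119) stood level with Fyn (222 ± 81.0), followed by Sirt2 (136 ± 70.7), Mpzl1 (90.8 ± 22.7), Enpp6 (30.4 ± 22.5), Itpr2 (19.95 ± 9.33), Tmem163 (14.1 ± 7.35), Tmem2 (13.2 ± 4.86) and Rras2 (3.34 ± 0.264 FPKM, SD, n = 4). By the same measure the order in Sox9-tg libraries was clear between Mpzl1 and Enpp6 and between Tmem2 and Rras2. That measure sets means and SDs side by side and ignores that the genes share libraries. Within each of Sox9-tg 1 to 4, Fyn also stood above Sirt2 (127 against 51.0, 324 against 224, 225 against 139 and 211 against 130 FPKM). Each remaining step was reversed in some Sox9-tg library. Enpp6 went from the lowest mean level of the 9 genes to the fifth, and Bcas1 from the fifth place to the first.

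Within their gene families, several members took a larger share of the summed FPKM. Itpr2 made up 74.5 ± 0.397% of the 3 inositol trisphosphate receptors in Control and 93.7 ± 1.37% in Sox9-tg libraries. Sirt2 went from 38.8 ± 2.87% of 7 sirtuins to 73.4 ± 12.3%, with 56.4% in Sox9-tg 1 and 85.6% in Sox9-tg 2. Fyn held 58.9 ± 2.8% of 7 Src family kinases in Control and 63.0, 84.4, 73.2 and 72.5% in Sox9-tg 1 to 4. Enpp6 rose from 2.69 ± 1.39% to 17.2 ± 8.3% of the Enpp family, in which Enpp2 (log2 fold change 3.13) and Enpp1 (2.10, its call lost without Control 3, adjusted p = 0.0532) also rose. Enpp2 encodes autotaxin, a secreted enzyme of differentiating oligodendrocytes, and went from 12.6 to 111 FPKM in mean. Rras2 was 7.85 ± 0.225% and 9.01 ± 0.495% of the sum of Rras, Rras2 and Mras, and Mpzl1 made up 99.0 and 99.7% of the Mpzl genes in mean. Tmem2 took no larger share of the sum of Tmem2 and Cemip. It held 99.0 ± 0.313% in Control and 98.9 ± 0.0625% in Sox9-tg libraries, and the ranges overlapped. These shares were not tested, and each depends on the other genes of its family as well.

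**Figure D3:**
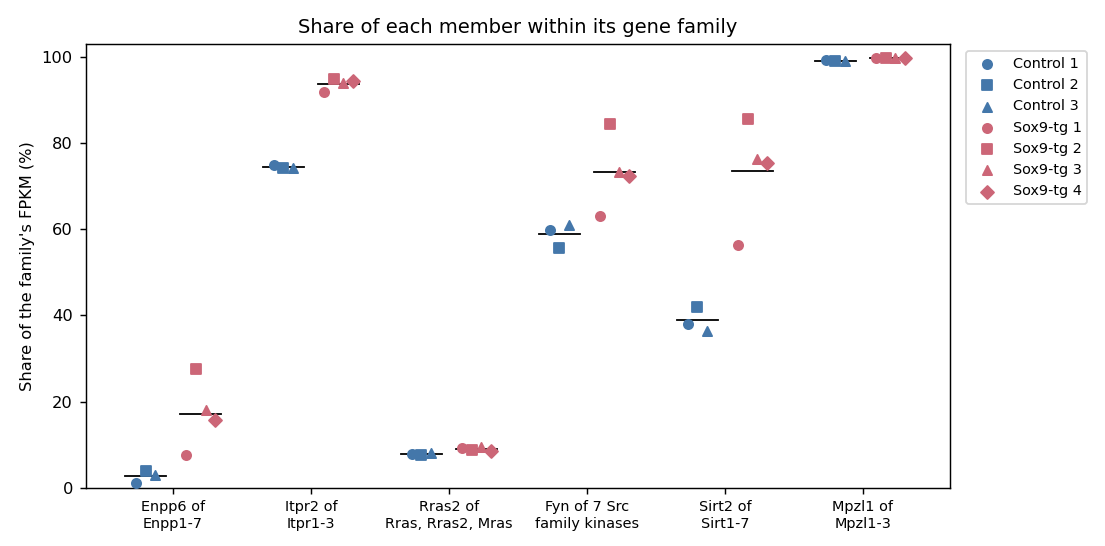
Share of a family's summed FPKM (percent) taken by the member named, in each library, with a line at the group mean. Every member shown has a higher share in all 4 Sox9-tg libraries than in any Control library. Tmem2 is not shown, and its share of Tmem2 and Cemip overlapped between groups. The shift is small for Rras2, and Mpzl1 is near its ceiling in both groups.

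The Sox9-tg libraries were far from alike, and the genes that rose shared an order. Enpp6, Bcas1, Tmem163, Sirt2, Mpzl1 and Fyn were each lowest in Sox9-tg 1, highest in Sox9-tg 2, and higher in Sox9-tg 3 than in Sox9-tg 4. Sox9-tg 2 exceeded Sox9-tg 1 by 8.5-fold for Enpp6, 4.88-fold for Tmem163, 4.39-fold for Sirt2, 3.66-fold for Bcas1, 2.56-fold for Fyn and 1.91-fold for Mpzl1. Itpr2 was highest in Sox9-tg 2 too, but lowest in Sox9-tg 3. Tmem2 had the opposite order at its ends, highest in Sox9-tg 1 and lowest in Sox9-tg 2, and Rras2 differed by 1.18-fold at most.

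The SD of log2 CPM over the 4 Sox9-tg libraries was 1.28 for Enpp6, 0.98 for Tmem163, 0.89 for Sirt2, 0.77 for Bcas1, 0.58 for Itpr2, 0.56 for Fyn and 0.40 for Mpzl1, against a median of 0.25 over all genes tested. An SD at least as large was found for 2.72% of genes in the case of Enpp6, 9.79% for Bcas1, 28.2% for Mpzl1 and 86.9% for Rras2 (SD 0.11). For the same 7 genes that rose the SD was larger over Sox9-tg than over Control libraries, as it was for 54.7% of all genes tested. Sox9 itself, with 2207, 2741, 3597 and 3115 CPM in Sox9-tg 1 to 4, had the order of most genes that rose only in part. It too was lowest in Sox9-tg 1 and higher in Sox9-tg 3 than in Sox9-tg 4. Its level in Sox9-tg 2, however, was not its highest. Any link between the Sox9 level and the spread of these genes was not tested.

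**Figure D4:**
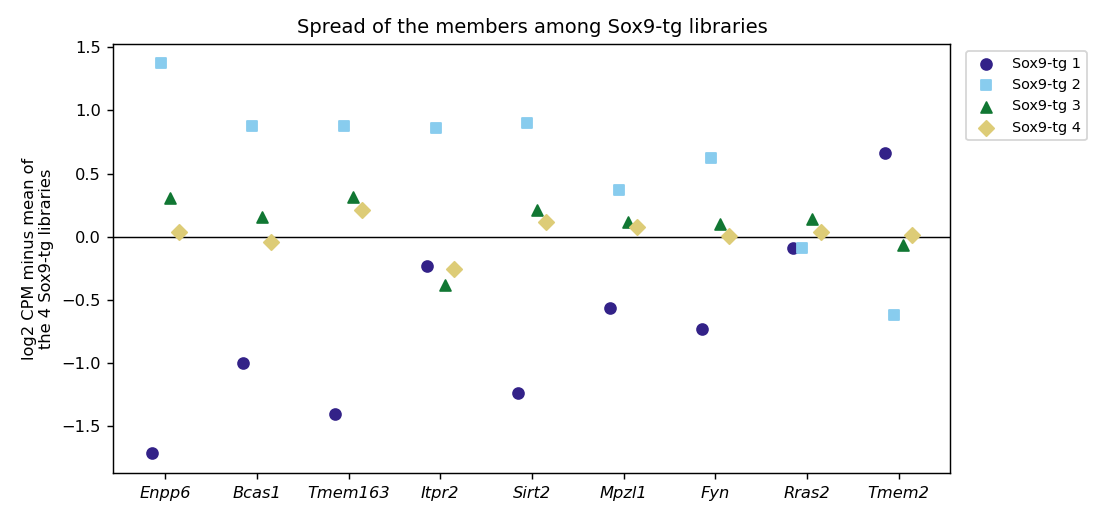
Log2 CPM of each member in each Sox9-tg library minus its mean over the 4. Sox9-tg 1 (circles) lies lowest and Sox9-tg 2 (squares) highest for 6 of the 7 genes that rose, and Itpr2 is high in Sox9-tg 2 alone.

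Other gene lists moved with these libraries. Of 18 cell-cycle genes 17 fell, with summed levels of 1969 to 2886 CPM in Control and 757 to 1348 CPM in Sox9-tg libraries, where Sox9-tg 1 was highest and Sox9-tg 2 lowest. Of 18 neuronal genes 7 fell (4296 to 7005 against 2357 to 5107 CPM), again with Sox9-tg 1 highest and Sox9-tg 2 lowest in that group, and of 12 astrocyte genes 5 fell (2645 to 4771 against 1823 to 2571 CPM). None of 11 tested microglial genes passed (119 to 856 against 59.7 to 362 CPM), nor any of 11 tested endothelial and mural genes (31.9 to 240.2 against 26.5 to 70.7 CPM). In both of these lists Control 2 and Sox9-tg 2 were the highest of their groups, and no tested marker of neurons, astrocytes, microglia or vessels was at 0 counts in any library. Of 9 tested Schwann cell and neural crest genes, 5 rose (Foxd3, Mitf, Dct, Pmel and Cdh19) and Ngfr fell, with summed levels of 43.8 to 74.0 CPM in Control and 133 to 249.7 CPM in Sox9-tg libraries. Foxd3 had 0 counts in Control 1. The part of these cells or of the cell cycle in the spread of the premyelinating genes was not tested. Without Sox9-tg 2, each of the 7 genes still passed, with log2 fold changes from 1.13 for Fyn to 4.78 for Enpp6, and without both Sox9-tg 1 and Sox9-tg 2 each passed with 1.35 for Fyn to 5.18 for Enpp6.

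**Figure D5:**
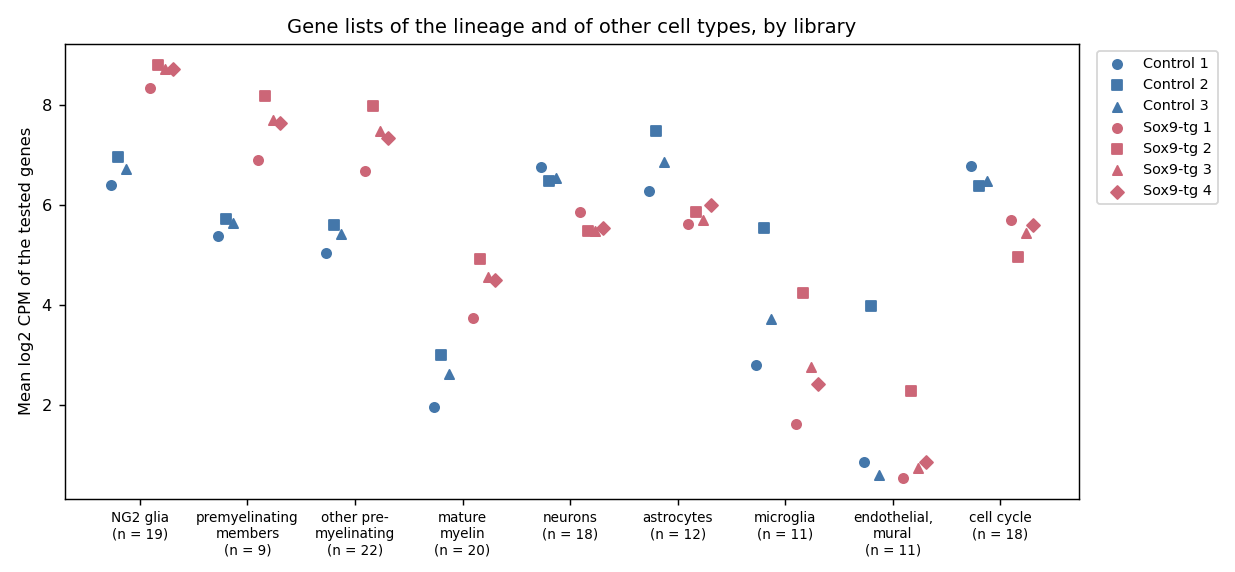
Mean log2 CPM of the tested genes of each list, by library. Lists of the oligodendrocyte lineage are higher in Sox9-tg libraries, and lists of neurons, astrocytes and the cell cycle lower. Microglial and endothelial lists are highest in the libraries numbered 2.

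For each member the 2 protein-coding genes with the most similar pattern were found by the root mean square difference of log2 CPM, each gene centred on its mean over the 7 libraries. Tmem163 was nearest to Cnp, a myelin enzyme (difference 0.07), and to B3gnt9 (0.09). Enpp6 was nearest to Mag (0.26) and Neu4 (0.35), and Sirt2 to Gp1bb (0.16) and Slc44a1 (0.17), a choline transporter. Bcas1 was nearest to Angptl1 (0.16) and Col9a2 (0.17), and Itpr2 to Col11a1 (0.18) and Wwp2 (0.26), so these members lay closest to genes of which Col9a2 and Col11a1 encode cartilage collagens. Fyn was nearest to Sh3bp4 (0.10) and Serinc5 (0.13), and Mpzl1 to Slc22a23 (0.11) and Sh3bp4 (0.13). Tmem2 was nearest to Maml3 (0.11) and Rbfox2 (0.13), and Rras2, being nearly flat, to Med25 and Klhdc8b (0.03 each). This is a description of 7 libraries in which the group difference dominates the larger patterns.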

How the data were processed

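The submitters' processing notes name build GRCm38, DESeq, DESeq2, featureCounts, Subread 1.5.2, Trimmomatic 0.36 and the aligner STAR 2.5.2b. The sources used here do not give parameters, annotation release, strand use or treatment of multi-mapping reads. The authors deposited raw whole-number read counts per gene, with 1 table per library. Members were matched by the deposited gene name or ID. Members and lists were chosen with earlier results of these data known.

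Genes were kept by edgeR's filterByExpr (minimum count 10, total 15), scaled with TMM, and tested with edgeR 4.0.16 in R 4.3.3 (quasi-likelihood F test, group as the only term, all 7 libraries, two-sided). The SE is the log2 fold change divided by the square root of F, and 95% intervals use the test's moderated degrees of freedom. Log2 CPM used a prior count of 2. Coordinates and merged exon lengths came from GENCODE M21 (GRCm38), promoters from RefSeq GRCm38.p6. A floor of 3 counts corresponded to 0.097 to 0.193 CPM. Replicates differed beyond counting error: among genes with 100 or more counts in a pair, 10.9% (Sox9-tg 3 and 4) to 60.9% differed by over 3 sampling SDs. Named genes were the members, preset reference genes, family genes and the 2 nearest genes per member. Ddr1, Olig2, the Schwann cell and neural crest genes, the mature myelin genes that did not pass and the genes overlapping members were named after their values were seen, and the ratios were added then. Alternatives were upper-quartile, RLE or no factors, DESeq2 1.42.0, limma-voom 3.58.1, other filters, a replicate block and leaving out libraries. The code was tested on simulated data.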

Additional observations from a re-analysis of the deposited data

Results flagged for a closer look

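Itpr2 in Sox9-tg 2 stood apart from the other Sox9-tg libraries. At 502 CPM against 212 to 235 CPM, its gap to the nearest library was 0.92 of the group's whole range, above Dixon's 95% critical value for 4 values. The same rule was applied to 28 sets of values (9 genes and 19 list means), and chance flags about 1 in 20 such groups. Without Sox9-tg 2 the log2 fold change of Itpr2 was 2.24 (edgeR quasi-likelihood, adjusted p = 0.00019).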

How the results depend on the processing

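Bcas1, Enpp6, Itpr2, Tmem163 and Mpzl1 kept their direction and their call under all 16 alternatives. The number of members called higher was 7 under every alternative with all libraries and 5 to 7 when 1 library was left out, and the number called lower was 0 when 1 library was left out. Without 1 library, Fyn ranged from 1.13 to 1.54 (log2 fold change), Sirt2 from 1.95 to 2.56, Rras2 from -0.11 to 0.07 and Tmem2 from -1.03 to -0.42. Rras2 had a log2 fold change of 0.0735 without Control 2, 0.00583 without Sox9-tg 2 and 0.0748 without both Sox9-tg 1 and Sox9-tg 2, an alternative chosen after seeing the data. Genes called in all numbered 965 to 3169 when 1 library was left out (575 to 1785 higher, 390 to 1384 lower), against 2251. Itpr1 had -0.0153 under upper-quartile factors, -0.0259 under total counts, -0.12 to 0.157 when 1 library was left out (negative without Control 3, Sox9-tg 1 or Sox9-tg 2) and -0.347 without both Sox9-tg 1 and Sox9-tg 2. Klhdc8b ranged from -0.155 to 0.0308 when 1 library was left out, and Med25 reached 0.0426, both positive without Control 2, and without both Sox9-tg 1 and Sox9-tg 2 Med25 had 0.036 and Klhdc8b 0.0635. The cause of these shifts was not tested.

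With the replicate number as a block, 3109 genes were called, 1600 higher and 1509 lower, 7 members were called higher and 1 lower, Tmem2 (-0.74, adjusted p = 0.00398). Under the block Tcf7l2 also passed (0.84, adjusted p = 0.00204), as did Maml3 (-0.85, 0.00378) and Rbfox2 (-0.65, 0.0082), and Slc30a4 did not (0.37, 0.0567). DESeq2 called 3048 genes. Deviations of same-numbered libraries correlated at 0.317, 0.613 and 0.0703 for pairs 1, 2 and 3. Control 1 and Control 2 correlated best with the Sox9-tg library of the same number, and Control 3 with Sox9-tg 1 (0.14). The labels give no pairing, and whether same-numbered libraries share a preparation was not tested. Upper-quartile factors gave 1113 higher and 1112 lower genes and total counts 1117 and 1087, against 1278 and 973. Counts of 29 to 217 for Enpp6 in Control, and its spread between libraries of both groups, limit the precision of its fold change.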
